A study of Mus musculus with 8 samples.

Results

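The 10 genes followed in the liver of mice without hepatic pyruvate carboxylase were Apoa1, Apoa2, Apoa4, Apoa5, Apob, Apoc2, Apoc3, Apoe, Mttp and Vldlr, of 35275 genes in the count table. They were chosen by name as apolipoproteins and proteins that assemble or take up triglyceride-rich lipoproteins, with earlier results of these data known. The share of them called is therefore a description. All 10 were found by gene symbol and all 10 passed the filter on low counts, with 434 reads or more summed over the 4 libraries of either genotype. Whole-liver RNA was sequenced from 4 Pcx L-/- mice and 4 controls, which were males aged 9 weeks taken after a 24 h fast, with 1 library for each mouse. Pcx L-/- mice carried floxed Pcx alleles and Albumin-Cre, which deletes the gene in hepatocytes. The controls, called WT in the sample labels and in this text, were Pcx f/f littermates, which carried the floxed alleles, on a C57BL/6 background. Both genotypes had therefore been fasted, and no fed liver was compared.

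Triglyceride-rich lipoproteins carry fat from the liver to other tissues in a particle wrapped around a single molecule of apolipoprotein B. The microsomal triglyceride transfer protein, encoded by Mttp, loads lipid onto apolipoprotein B in the endoplasmic reticulum, and smaller exchangeable apolipoproteins settle on the surface of the particle. In blood, apolipoproteins C-II and A-V favour hydrolysis of the triglyceride by lipoprotein lipase and apolipoprotein C-III hinders it, while apolipoprotein E leads the remnant to its receptors. Apolipoproteins A-I and A-II are the main proteins of high-density lipoprotein, and apolipoprotein A-IV is made by the intestine and, in fasted or fat-laden mouse liver, by hepatocytes. The VLDL receptor binds apolipoprotein E on these particles and is normally scarce in liver.

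Depth was 12016242 to 20023108 reads on genes per library. Pcx, the deleted gene, had normalized counts of 14371 to 22059 in WT and 555.7 to 757.7 in Pcx L-/- libraries, so that every library matched its label. A normalized count is the number of reads scaled to a common library size after correction by edgeR's TMM factors, and genotypes were compared over 13168 genes with edgeR's quasi-likelihood test and Benjamini-Hochberg adjustment, with an adjusted p of 0.05 as the threshold. WT replicate 4 and Pcx L-/- replicate 1 stood apart. WT replicate 4 had the fewest reads and differed from the other WT libraries along transcript length, with a median log2 difference of -0.50 over 450 genes under 1 kb and 0.41 over 452 genes of 8 kb and over. The same quantities lay between -0.13 and 0.26 and between -0.21 and 0.12 in the other 7 libraries, each set against the rest of its genotype. Pcx L-/- replicate 1 differed from the other Pcx L-/- libraries by 47 to 70.8 in chi-square per degree of freedom, against 11.1 to 16.7 among those 3 and 16.9 to 56.7 among WT libraries, and it was the only Pcx L-/- mouse numbered in the 500s. WT replicates 1 and 2 were numbered in the 500s as well, so the number series was spread unevenly over the genotypes. Pcx L-/- replicate 1 also held the most blood RNA, with 27468 normalized counts of the haemoglobin gene Hba-a1 against 2322 to 5940 in the other Pcx L-/- and 1497 to 5952 in the WT libraries. Of 5 blood markers tested 0 were called between genotypes, against 27.6% of all genes tested. Hba-a1, Hba-a2, Hbb-bs and Hbb-bt had log2 fold changes of 1.48, 1.35, 1.29 and 1.0 with wide spread, and Alas2 had -0.31. The part of blood RNA in the values of Pcx L-/- replicate 1 was not tested. In bulk tissue, fewer hepatocytes and less RNA per hepatocyte cannot be told apart.

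Of the 10 genes, Apoa4 and Vldlr were higher and Apoa1, Apob, Apoa5 and Mttp were lower in Pcx L-/- liver. Apoa2, Apoe, Apoc3 and Apoc2 did not pass the threshold. The 6 called of 10 stood against 27.6% of all genes tested, of which 14.1% were higher and 13.5% lower. Genotypes did not overlap in normalized counts for 4 of the 10, again against 27.6% of all genes, and 3 of the called genes changed by at least 2-fold, which 7.22% of all genes did. The median log2 fold change of the 10 was -0.44, and that of all genes tested was -0.0052. Scaling by library size alone moved the latter to 0.28 and the share of calls that were higher from 51.1% to 81.8%, and it left the direction of each of the 10 genes as it was. Without Pcx L-/- replicate 1 the number of lower genes rose from 4 to 7, by Apoa2, Apoc3 and Apoe, while the share of all genes called rose to 34.5%.

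**Figure D1:**
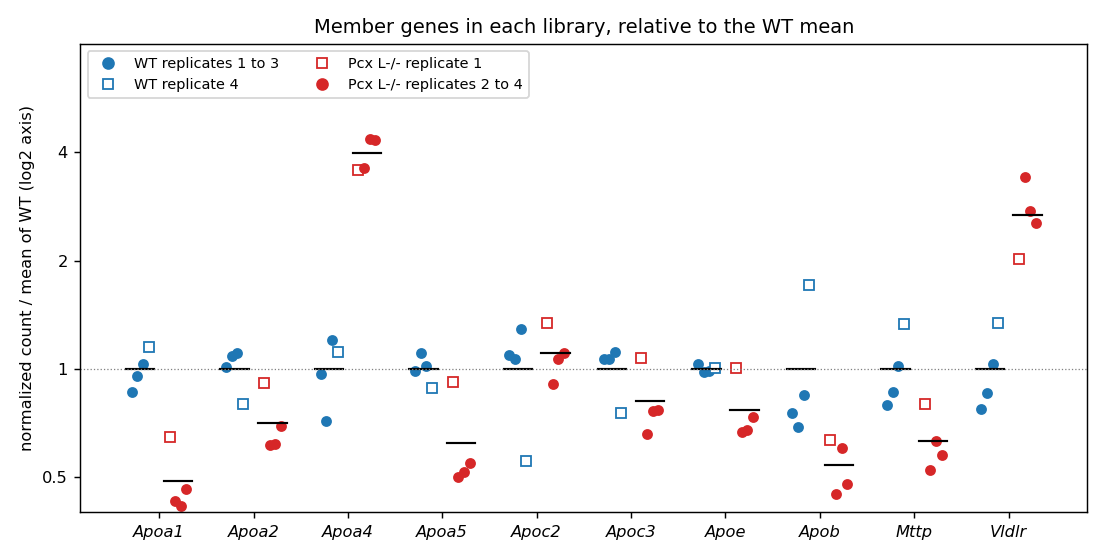
Normalized count of each gene in each library divided by the mean of the 4 WT libraries, on a log2 axis; points are libraries, open squares are WT replicate 4 and Pcx L-/- replicate 1, and bars are genotype means. Apoa4 and Vldlr lay above WT in all 4 Pcx L-/- libraries and Apoa1 and Apob below it, while WT replicate 4 was the highest library for Apob and the lowest for Apoc2.

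Hepatocyte RNA dominated every library, with Alb, the gene of serum albumin, at rank 1 of FPKM in all 8. Of 8 hepatocyte markers measured, 3 were lower (Pck1, Fgb and Serpina1a) and 0 were higher, 37.5% called against 27.6% of all genes. Alb had a log2 fold change of -0.63 (adjusted p = 0.0532 by edgeR), while Ahsg had 0.28 (95% CI -0.10 to 0.66) and Hpx 0.0048 (95% CI -0.30 to 0.31). Their summed level was 46690.3 to 49435 FPKM in WT and 39106 to 46530.1 FPKM in Pcx L-/- liver, and their median log2 fold change of -0.51 was close to the -0.44 of the 10 genes. The part of this shift in the falls described here was not tested. Intestine also makes Apob, Apoa4 and Mttp, and of 8 enterocyte markers Sis, Alpi and Cdx1 had 0 reads in all 8 libraries. Per library, Cdx2 had 0 to 1 reads, Lct 0 to 2, Vil1 1 to 4, Slc5a1 9 to 25 and Fabp2 593 to 1727. The summed enterocyte list, made up mostly of Fabp2, lay at 51.4 to 106 FPKM in WT and 67.1 to 96.7 FPKM in Pcx L-/- liver. Of the 2 markers tested 0 were called, against 27.6% of all genes.

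Compared per length, the genes spanned a wide range of levels. Apoe was the highest of the 10, at 14293 ± 793 FPKM (SD, n = 4) in WT liver and rank 2 of all genes by mean. Apoa2 followed at 9057 ± 1672 FPKM and Apoa1 at 8326 ± 666 FPKM (SD, n = 4), and this pair did not differ beyond its spread. Below them stood Apoc3 with 1815 ± 378 FPKM and Apoa5 with 855 ± 119 FPKM, then Apob with 552 ± 224, Apoa4 with 368 ± 72.5 and Apoc2 with 313 ± 107 FPKM (SD, n = 4), 3 neighbours whose ranges overlapped. Mttp had 82.5 ± 15 FPKM and Vldlr, at 0.85 ± 0.163 FPKM (SD, n = 4), was at rank 10832.

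In Pcx L-/- liver the order changed mainly through Apoa4. Its level of 1797 ± 295 FPKM (SD, n = 4) moved it from rank 155 to rank 33, beside Apoc3 at 1769.7 ± 222 FPKM, from which it did not differ beyond the spread. Apoa1 moved from rank 5 to rank 10, at 4909 ± 601 FPKM, and Apob from rank 105 to rank 186, at 369 ± 48.8 FPKM (SD, n = 4). The WT mean of Apob rests on WT replicate 4, which had 884 FPKM, while the other WT libraries had 403 to 484 and overlapped the Pcx L-/- libraries at 325 to 432 FPKM. Vldlr reached 2.84 ± 0.785 FPKM (SD, n = 4) and rank 8520, still the lowest of the 10. Together the 10 genes held 7.36% ± 0.249 of all FPKM in WT and 6.27% ± 0.493 in Pcx L-/- liver (SD, n = 4). Pcx L-/- replicate 1 had the largest share of its genotype, 6.98%, and the other 3 had 5.87 to 6.22%.

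**Figure D2:**
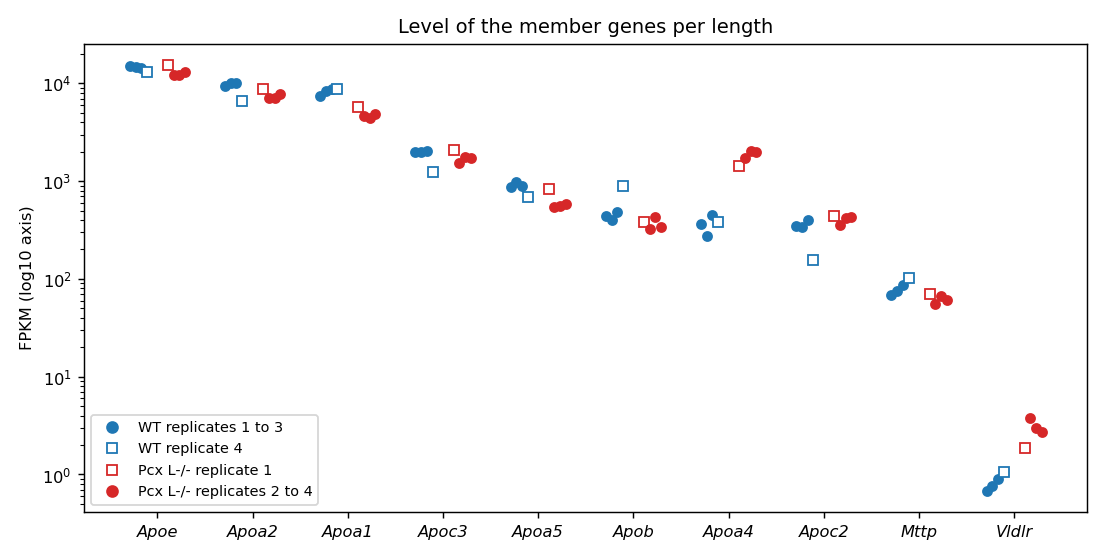
FPKM of each gene in each library on a log10 axis, ordered by the WT mean, with open squares for WT replicate 4 and Pcx L-/- replicate 1. Apoe, Apoa2 and Apoa1 were the highest in WT liver and Vldlr the lowest, and in Pcx L-/- liver Apoa4 reached the level of Apoc3.

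Apoa1, Apoc3, Apoa4 and Apoa5 lie beside each other on chromosome 9, between 46228580 and 46271919 of GRCm38, a span of 43.3 kb. Apoc3 is read from the minus strand and the other 3 from the plus strand, with 10.2 kb between the end of Apoa1 and the start of Apoa4. In fasted liver without Pcx these neighbours went different ways. Because the results turn on this pair, the bases before each start are shown as RefSeq gives them for GRCm38.p6, from 250 bases before the RefSeq start site up to the base before the earlier start in the GENCODE M21 annotation, at chr9:46228380-46228579 for Apoa1 and chr9:46240594-46240695 for Apoa4, both on the plus strand. Capitals mark a match to CAAAGTNCA, a core of the binding site of HNF4, a nuclear receptor that binds many apolipoprotein promoters.
Apoa1: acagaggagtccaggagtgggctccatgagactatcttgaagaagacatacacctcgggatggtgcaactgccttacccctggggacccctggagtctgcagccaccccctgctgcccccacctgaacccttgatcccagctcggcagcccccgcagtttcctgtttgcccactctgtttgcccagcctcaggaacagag
Apoa4: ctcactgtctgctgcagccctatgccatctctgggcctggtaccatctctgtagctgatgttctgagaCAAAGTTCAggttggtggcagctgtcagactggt

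The Apoa4 match, CAAAGTTCA, began 182 bases before the RefSeq start site. Of the 14 promoter windows of 300 bases that RefSeq gives for 9 of the 10 genes, this was the only 1 with the motif on either strand, and 1.41% of all 32851 windows held it. Only this exact pattern was searched, so a window without it, such as that of Apoa1, may still hold another form of the site. The motifs searched were picked after some of these windows had been read, and a match is a description of letters, not of a factor bound in these livers. Hnf4a itself had a log2 fold change of -0.31 (95% CI -0.70 to 0.07; adjusted p = 0.216 by edgeR).

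Apoa4 (ENSMUSG00000032080, chr9:46240696-46243459), the gene of an apolipoprotein of chylomicrons and nascent liver particles, rose about 4-fold. WT replicates 1 to 4 had 12150, 8978, 15097 and 14015 normalized counts, and Pcx L-/- replicates 1 to 4 had 44944, 45468, 54680 and 54479. Every Pcx L-/- library stood above every WT library, and the lowest of them was close to 3 times the highest WT value. The means were 12560 ± 2680.2 and 49893 ± 5417 (SD, n = 4), a ratio of 3.97, with a log2 fold change of 1.99 ± 0.19 (SE; 95% CI 1.58 to 2.40; adjusted p = 0.000196 by edgeR). Pcx L-/- replicate 1 was the lowest of its genotype, and the log2 fold change was 2.04 without it and 2.05 without WT replicate 4. It was past the threshold in all 19 alternative analyses, with values of 1.82 to 2.29. An antisense gene over the end of Apoa4, Gm10680, had 0 reads in every library. The sources used here do not say whether counting used strand, and counting without it can leave out reads that lie over both genes. The 0 reads therefore do not show that antisense RNA was absent, and the FPKM and rank of Apoa4 may be too low. A second opposite-strand gene, Gm47528 (chr9:46239841-46242032), covers the start of Apoa4 and the bases shown before it, and was not among the genes counted.

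Apoa1 (ENSMUSG00000032083, chr9:46228580-46230466), which encodes the structural protein of high-density lipoprotein, fell to about 49% of WT. It had 139585, 154709, 167260 and 186883 normalized counts in WT replicates 1 to 4, and 104680, 69359, 67381 and 74971 in Pcx L-/- replicates 1 to 4. The genotypes did not overlap, and Pcx L-/- replicate 1 lay nearest to WT. From 162109 ± 20020 in WT the mean went to 79098 ± 17355 (SD, n = 4), a log2 fold change of -1.04 ± 0.20 (SE; 95% CI -1.46 to -0.61; adjusted p = 0.004 by edgeR). The call held in all 19 alternatives, between -1.33 and -0.76, and the value was -1.20 without Pcx L-/- replicate 1.

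Apoa5 (ENSMUSG00000032079, chr9:46268633-46271919), whose product is a scarce but potent activator of triglyceride clearance, was lower in 3 of 4 Pcx L-/- libraries. WT replicates 1 to 4 had 39633, 44431, 40960 and 35606 normalized counts, and Pcx L-/- replicates 1 to 4 had 36921, 20036, 20681 and 22019. Replicate 1 of Pcx L-/- fell inside the WT range, and the other 3 lay well below it. The log2 fold change was -0.69 ± 0.21 (SE; 95% CI -1.14 to -0.23; adjusted p = 0.0302 by edgeR), and without Pcx L-/- replicate 1 it was -0.94 (adjusted p = 0.000162 by edgeR). The call was lost by limma on FPKM and without any one of WT replicates 1 to 3 or of Pcx L-/- replicates 2 to 4, with adjusted p of 0.0596 to 0.1 by limma or edgeR and log2 fold changes of -0.70 to -0.45.

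Apoc3 (ENSMUSG00000032081, chr9:46232933-46235636), the gene of the inhibitor of triglyceride hydrolysis that lies between Apoa1 and Apoa4, had a log2 fold change of -0.29 ± 0.19 (SE; 95% CI -0.70 to 0.12; adjusted p = 0.271 by edgeR). It had 25465, 25512, 26744 and 18081 normalized counts in WT and 25636, 15779, 18310 and 18380 in Pcx L-/- replicates 1 to 4. The genotypes overlapped through the libraries that stood apart, since WT replicate 4 lay with the lower Pcx L-/- libraries and Pcx L-/- replicate 1 with WT. The difference was -0.41 without WT replicate 4 (adjusted p = 0.105 by edgeR) and passed the threshold without Pcx L-/- replicate 1, at -0.46 (adjusted p = 0.0368 by edgeR). At 709 bases Apoc3 is among the short transcripts that were lower in WT replicate 4.

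The genes that flank this cluster had smaller fold changes than the cluster genes, at -0.17 to 0.19 in log2. Of the 5 flanking genes Sik3, Bud13, Zpr1, Pafah1b2 and Sidt2, 0 were called by edgeR at an adjusted p of 0.05, against 27.6% of all genes. With 5 genes, 0 calls are not set apart from that share. To compare neighbours free of any scaling between libraries, the FPKM of 2 genes were divided within each library and 6 such ratios were tested by an exact two-sided permutation test, of which 5 are reported. Apoa4 over Apoa1 was 0.0496, 0.0331, 0.0515 and 0.0428 in WT and 0.245, 0.374, 0.463 and 0.414 in Pcx L-/- replicates 1 to 4. All 4 Pcx L-/- ratios exceeded all WT ratios, by 8.35-fold in geometric mean (exact permutation p = 0.0286, the smallest that 4 against 4 can give; adjusted over 6 ratios 0.0343). Apoa4 and Apoa1 each separated the genotypes, in opposite directions, so this separation and its p followed from those results and add no support to them. Apoa4 over Apoa5 rose 6.7-fold and Apoa4 over Apoc3 4.97-fold, both with the same p and with no overlap. The gap in Apoa4 between genotypes was wider than the whole spread of Apoa5 or of Apoc3. The separation of these ratios and its p therefore followed from Apoa4 and add no support either. For Apoa4 over Apoc3, Pcx L-/- replicate 1 had 0.685 and the other 3 had 1.13 to 1.17.

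**Figure D3:**
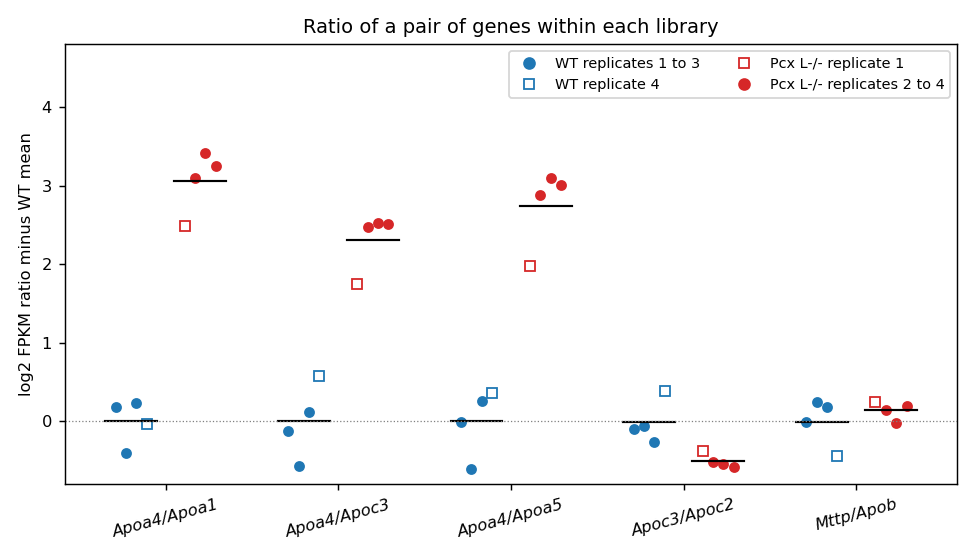
The log2 ratio of the FPKM of 2 genes in each library, minus the mean of the 4 WT libraries; bars are genotype means and open squares are WT replicate 4 and Pcx L-/- replicate 1. The 3 ratios with Apoa4 on top were higher in every Pcx L-/- library, and Mttp over Apob overlapped between genotypes.

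Apob and Mttp, the core protein of the particle and the protein that lipidates it, were both lower. Apob (ENSMUSG00000020609, chr12:7977648-8016835) had 110941, 101247, 124402 and 251112 normalized counts in WT and 92914, 66044, 88620 and 70112 in Pcx L-/- replicates 1 to 4. The genotypes did not overlap, but WT replicate 4 stood far above the other WT libraries. With means of 146926 ± 70104 and 79422 ± 13320 (SD, n = 4), the log2 fold change was -0.89 ± 0.29 (SE; 95% CI -1.52 to -0.26; adjusted p = 0.04 by edgeR). At 13934 bases Apob is among the long transcripts that were higher in WT replicate 4, and without that library the value was -0.50 and no longer past the threshold (adjusted p = 0.0643 by edgeR). The call was also lost without WT replicate 3 or Pcx L-/- replicate 2, 3 or 4, at -0.96 to -0.81 with adjusted p of 0.0616 to 0.119 by edgeR, and it held in 10 of 19 alternatives.

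Mttp (ENSMUSG00000028158, chr3:138089854-138144968) had 5269, 5741, 6766 and 8879 normalized counts in WT and 5303, 3478, 4188 and 3844 in Pcx L-/- replicates 1 to 4. Pcx L-/- replicate 1 lay just above the lowest WT library and the other 3 lay below all WT libraries. The log2 fold change was -0.66 ± 0.19 (SE; 95% CI -1.08 to -0.25; adjusted p = 0.0228 by edgeR), with -0.50 without WT replicate 4 and -0.80 without Pcx L-/- replicate 1, both past the threshold. It was lost without WT replicate 3 or Pcx L-/- replicate 2, 3 or 4 (adjusted p of 0.0557 to 0.076 by edgeR) and held in 12 of 19 alternatives. The ratio of Mttp to Apob was 0.155, 0.185, 0.177 and 0.115 in WT and 0.186, 0.172, 0.154 and 0.179 in Pcx L-/- libraries. These ranges overlapped, with a log2 difference of 0.15 (exact permutation p = 0.486). The opposite-strand gene Trmt10a, which overlaps the annotated 5' end of Mttp, had 309 reads in WT and 678 in Pcx L-/- libraries, against 22613 and 19437 for Mttp, and the sources used here do not say whether counting used strand.

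Apoe (ENSMUSG00000002985, chr7:19696109-19699188), the ligand that brings remnants to their receptors, did not pass the threshold although 3 of 4 Pcx L-/- libraries were low. It had 381674, 363765, 365353 and 373629 normalized counts in WT and 372383, 248020, 250673 and 271927 in Pcx L-/- replicates 1 to 4. The WT libraries were close together, and Pcx L-/- replicate 1 lay among them. The log2 fold change of -0.38 ± 0.20 (SE; 95% CI -0.81 to 0.05; adjusted p = 0.18 by edgeR) became -0.53 without that library (adjusted p = 0.00369 by edgeR) and was past the threshold in the DESeq2 Wald test (adjusted p = 0.0311).

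Apoa2 (ENSMUSG00000005681, chr1:171225054-171226379), the second protein of high-density lipoprotein, had 88610, 94633, 96557 and 69757 normalized counts in WT and 79831, 53526, 53970 and 60430 in Pcx L-/- replicates 1 to 4. The genotypes overlapped only through WT replicate 4 and Pcx L-/- replicate 1. Its log2 fold change was -0.50 ± 0.19 (SE; 95% CI -0.91 to -0.09; adjusted p = 0.0707 by edgeR). Leaving out WT replicate 4 gave -0.59 (adjusted p = 0.0351 by edgeR), and leaving out Pcx L-/- replicate 1 gave -0.64 (adjusted p = 0.00469 by edgeR).

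Apoc2 (ENSMUSG00000002992, chr7:19671579-19677941), which encodes the activator of lipoprotein lipase, was the only 1 of the 10 with a value near 0, at 0.14 ± 0.23 (SE; 95% CI -0.35 to 0.64; adjusted p = 0.681 by edgeR). It had 4563, 4459, 5380 and 2310 normalized counts in WT and 5599, 3784, 4461 and 4628 in Pcx L-/- replicates 1 to 4. WT replicate 4 was the lowest library by far, at a transcript length of 722 bases, and the log2 fold change was -0.06 without it. The inhibitor and the activator were also compared within each library. Apoc3 over Apoc2 was 5.68, 5.83, 5.06 and 7.97 in WT and 4.66, 4.25, 4.18 and 4.04 in Pcx L-/- libraries, lower in all 4 and 0.707 times the WT ratio in geometric mean (exact permutation p = 0.0286, adjusted 0.0343). Without WT replicate 4 the log2 difference went from -0.50 to -0.37, and the genotypes still did not overlap. A readthrough gene on the same strand, Gm44805, covers Apoc2 and was not analysed here.

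Vldlr (ENSMUSG00000024924, chr19:27216484-27254231), the receptor for triglyceride-rich particles, rose from a low level. It had 99.23, 109.4, 132.2 and 171.4 normalized counts in WT and 258.5, 436.6, 352.3 and 326.4 in Pcx L-/- replicates 1 to 4. Every Pcx L-/- library lay above every WT library, with Pcx L-/- replicate 1 the lowest of its genotype and WT replicate 4 the highest of its own. The means were 128.1 ± 32 and 343.5 ± 73.6 (SD, n = 4), a ratio of 2.68, and the log2 fold change of 1.44 ± 0.20 (SE; 95% CI 1.01 to 1.88; adjusted p = 0.00101 by edgeR) was past the threshold in all 19 alternatives, with values of 1.03 to 1.75. It was 1.56 without Pcx L-/- replicate 1 and 1.60 without WT replicate 4.

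**Figure D4:**
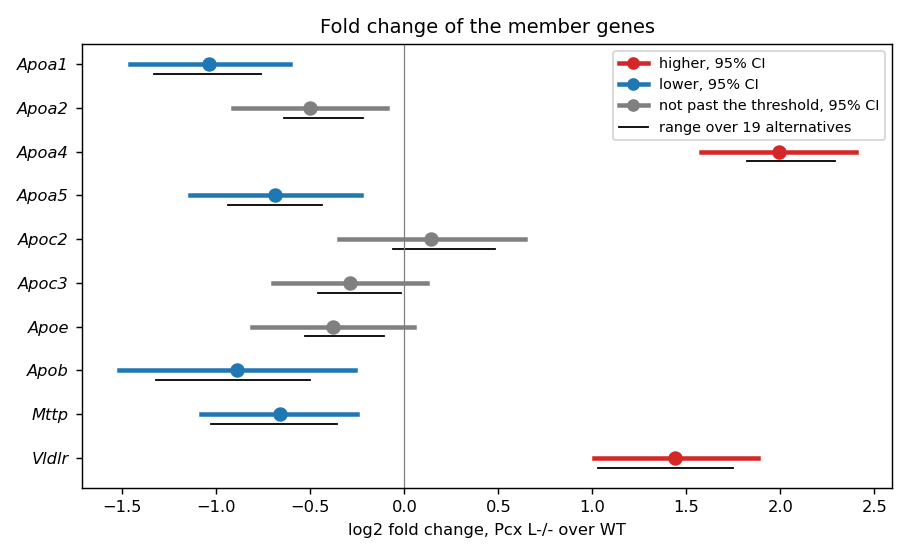
Log2 fold change of Pcx L-/- over WT for each gene (points) with its 95% CI from the edgeR fit (coloured bars, red for higher, blue for lower and grey for genes not past the threshold) and the range over 19 alternative analyses (thin black lines). Apoa4 and Vldlr were the 2 genes that rose, and of the 10 black lines only that of Apoc2 crossed 0.

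Short stretches of 2 further promoters are shown because each held a motif of a class of factors active in fasted or stressed liver. For Vldlr, 30 bases at chr19:27216809-27216838 (plus strand) begin 211 bases before the second of the RefSeq start sites, and capitals mark TGATGCAA read on the opposite strand, the core of the composite element of C/EBP and ATF factors. For Mttp, 30 bases at chr3:138143431-138143460 (minus strand) begin 42 bases before the start site, and capitals mark TGACGTNA read on the opposite strand, which resembles the cyclic AMP response element. The opposite-strand gene Trmt10a begins at chr3:138143448, within these capitals, so the match lies at the start of that gene as well. Its use by either gene was not tested.
Vldlr: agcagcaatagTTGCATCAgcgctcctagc
Mttp: gcacttacggcTTACGTCAtcggactgcgc

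Of all 32851 windows, 0.895% held TGATGCAA and 2.93% held TGACGTNA on either strand. Among the 14 windows of the gene set each motif was found once, in these places, and not in the windows of Apoa1, Apoa2, Apoa5, Apob, Apoc2 or Apoe. The first Vldlr window held none of the 3 motifs.

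Among all genes with at least 1 CPM on average, those whose log2 CPM followed Apoa4 most closely over the 8 libraries were Hspd1, the mitochondrial chaperonin, with Pearson r of 0.996, Elovl1, an elongase of long-chain fatty acids, with 0.990, and Ifi27l2b with 0.989. For Vldlr they were Acot2, a mitochondrial thioesterase that releases fatty acids from coenzyme A, with 0.996, and Ptgfrn and Gm6614 with 0.986 each. These values are descriptions over 8 libraries that fall into 2 genotypes, chosen as the highest of 12243 genes, and genotype alone gives a high r to any gene that differs strongly between the groups.

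Beyond the 10 genes, 73 genes of lipoprotein handling and cluster neighbours were grouped by role, and 72 were tested. The groups were also made with earlier results of these data known, so their shares called are descriptions. Of the 72 tested genes 2 were higher, 19 lower and 51 not past the threshold, so 29.2% were called against 27.6% of all genes, with a median log2 fold change of -0.25. Calls held in all 19 alternatives for both higher genes and for 9 of the 19 lower ones. Without Pcx L-/- replicate 1 the number of lower genes was 30, and without WT replicate 4 it was 20.

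The other apolipoproteins had the lowest median of the groups, -0.76. Of 8 listed, 7 were tested, and 5 were lower and 0 higher, 71.4% called against 27.6% of all genes. Apoh, which binds anionic phospholipids, had a log2 fold change of -0.95 (adjusted p = 0.00684), and Apom, the carrier of sphingosine-1-phosphate, -0.94 (adjusted p = 0.00995). Clu, a secreted chaperone, had -0.81 (adjusted p = 0.00426), Apon -0.76 (adjusted p = 0.0121) and Apof, an inhibitor of lipid transfer, -0.60 (adjusted p = 0.0193), all by edgeR. The call of Apof was lost without WT replicate 3 or Pcx L-/- replicate 2, 3 or 4 (adjusted p of 0.0505 to 0.0676 by edgeR), and the other 4 held in all 19 alternatives. Apoc1 and Apoc4, which lie between Apoe and Apoc2 on chromosome 7, did not pass, at -0.51 (adjusted p = 0.126) and -0.60 (adjusted p = 0.159) by edgeR. Both were low in WT replicate 4, and without it Apoc1 passed, at -0.67 (adjusted p = 0.0333 by edgeR), as it did without Pcx L-/- replicate 1, at -0.72 (adjusted p = 0.0141 by edgeR). Apom in Pcx L-/- replicate 1 had 2421 normalized counts against 1230 to 1291 in the other 3. Without that library Apoh, Apom, Clu and Apon were at -1.18, -1.24, -0.94 and -0.98.

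Genes of high-density lipoprotein and of cholesterol efflux were lower in 4 of 7 cases and higher in 0, 57.1% called against 27.6% of all genes, with a median of -0.39. Abcg5 and Abcg8, the pair that exports sterols into bile, had log2 fold changes of -1.24 (adjusted p = 0.0195) and -1.11 (adjusted p = 0.0203), Pon1, a lipolactonase bound to the particle, -0.50 (adjusted p = 0.0243), and Lcat, which esterifies its cholesterol, -0.38 (adjusted p = 0.0333), all by edgeR. The call of each was lost without any one of Pcx L-/- replicates 2 to 4, with adjusted p of 0.0511 to 0.109 by edgeR, and that of some also without WT replicate 1, 2 or 3. Without Pcx L-/- replicate 1, which had 1736 normalized counts of Abcg5 against 487 to 679.7 in the other 3, Abcg5 was at -1.83 (adjusted p = 1.1e-05 by edgeR) and Abcg8 at -1.61 (adjusted p = 2.36e-05 by edgeR). Abca1, which starts the particle by loading lipid onto apolipoprotein A-I, had -0.39 (adjusted p = 0.207 by edgeR).

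Of 8 receptors and uptake genes 2 were lower, 1 was higher and 5 were not called, 37.5% called against 27.6% of all genes, with a median of -0.26. The lower genes were Lrp1, the remnant receptor, at -0.94 (adjusted p = 0.0333), and Scarb1, the receptor of high-density lipoprotein, at -0.51 (adjusted p = 0.0232), both by edgeR. Lrp1, whose transcript of 14888 bases is as long as that of Apob, had 42039 normalized counts in WT replicate 4 and 12412 to 25453 in the other WT libraries, and its value without that library was -0.59 (adjusted p = 0.0696 by edgeR). The calls of Lrp1 and Scarb1 were also lost without Pcx L-/- replicate 2, 3 or 4 and without WT replicate 1, with adjusted p of 0.0601 to 0.0989 by edgeR, and that of Lrp1 without WT replicate 3 (adjusted p = 0.054 by edgeR). Cd36, a fatty acid transporter, was the 1 that rose, at 1.12 (95% CI 0.67 to 1.56; adjusted p = 0.00327 by edgeR), from 700.1 to 1411 normalized counts in WT to 1627 to 2357 in Pcx L-/- liver with no overlap.

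Among 7 lipases and their modulators 2 were lower, Lipg, an endothelial-type lipase, at -1.60 (adjusted p = 0.00224 by edgeR) and Lipc, hepatic lipase, at -0.84 (adjusted p = 0.00227 by edgeR), and 0 were higher. The share called was 28.6%, against 27.6% of all genes. Both held in all 19 alternatives. Lpl had 0.40 (95% CI -0.11 to 0.90), and its modulators Angptl4 and Angptl8 had 0.25 and 1.08 with adjusted p of 0.399 and 0.0901 by edgeR.

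Of 18 genes of particle assembly and secretion 4 were lower and 14 not called, 22.2% against the 27.6% of all genes. Ces1d, a lipid-droplet hydrolase that supplies triglyceride for secretion, had the largest fall, -1.73 ± 0.38 (SE; adjusted p = 0.00761 by edgeR), with 5889 to 17090 normalized counts in WT, 6130 in Pcx L-/- replicate 1 and 2109 to 2675 in the other 3. Without that replicate Ces1d was at -2.20 (adjusted p = 0.000284 by edgeR). Tm6sf2, which aids lipidation of the particle, had -0.79 (adjusted p = 0.0206), Mia3, a cargo receptor of the endoplasmic reticulum, -0.63 (adjusted p = 0.00934) and A1cf, the partner of the Apob mRNA editing enzyme, -0.50 (adjusted p = 0.0232), all by edgeR. Without Pcx L-/- replicate 2 or 4 or WT replicate 3, Tm6sf2 and A1cf were not past the threshold (adjusted p of 0.0553 or more for A1cf and of 0.055 or more for Tm6sf2, by edgeR), while without Pcx L-/- replicate 1 Tm6sf2 was at -1.09 (adjusted p = 0.0001 by edgeR). A1cf was also lost when scaled by library size alone, at -0.22 (adjusted p = 0.203 by edgeR). By limma on FPKM it was at -0.22 and -0.23 (adjusted p of 0.172 and 0.173 by limma). The call of A1cf held in 13 of 19 alternatives and that of Tm6sf2 in 15. P4hb, the partner subunit of the transfer protein, and Apobec1, the editing enzyme, had 0.24 (95% CI -0.09 to 0.57) and 0.03 (95% CI -0.32 to 0.37).

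**Figure D5:**
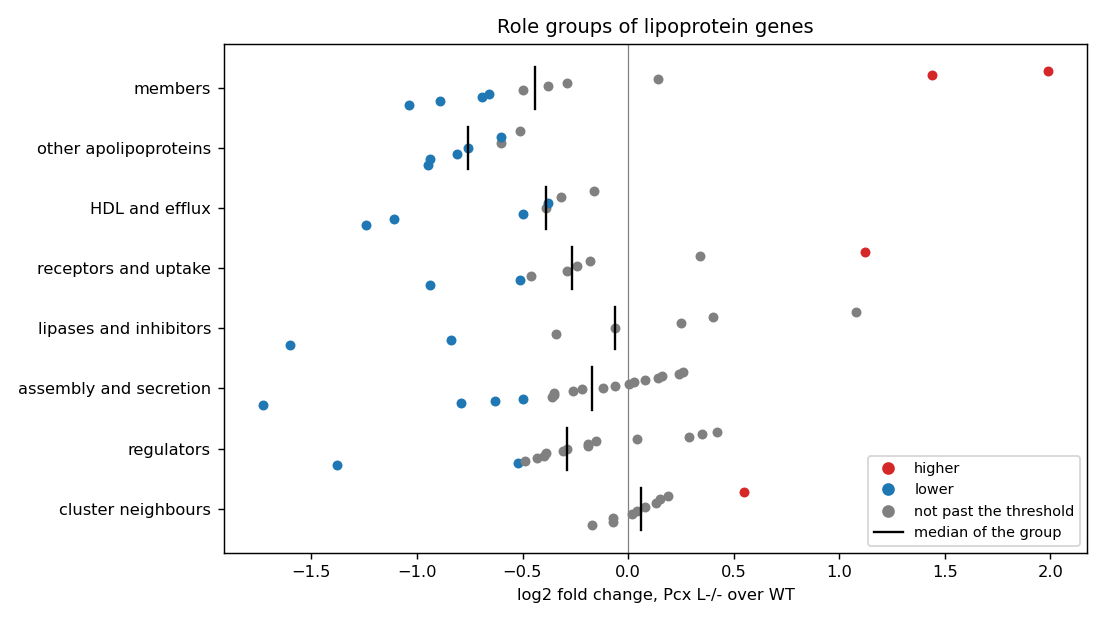
Log2 fold change of Pcx L-/- over WT for each tested gene in the 10-gene set (members) and in 7 role groups; points are genes, coloured by whether they passed the edgeR threshold, and black bars are group medians. The medians run from -0.76 for the other apolipoproteins to 0.06 for the cluster neighbours.

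Of 15 regulators 2 were lower and 0 higher, 13.3% called against 27.6% of all genes. Srebf1, a driver of lipid synthesis, had -1.38 (adjusted p = 0.00451) and Ppara, the fatty acid sensor of fasting, -0.52 (adjusted p = 0.0137), both by edgeR, and without Pcx L-/- replicate 1 Srebf1 was at -1.77. Ppara was not past the threshold without Pcx L-/- replicate 4 (adjusted p = 0.0534 by edgeR) or when scaled by library size alone (-0.24). Its call held in 15 of 19 alternatives. Creb3l3, known to induce Apoa4 in fasted liver, had -0.19 (95% CI -0.55 to 0.17; adjusted p = 0.414 by edgeR). Without Pcx L-/- replicate 1 Creb3l3 was lower, at -0.36 (adjusted p = 0.0364 by edgeR). These are RNA levels, and the part of Creb3l3 in the rise of Apoa4 was not tested. Among the 10 neighbours of the clusters on chromosomes 9 and 7, Tomm40, a mitochondrial import pore beside Apoe, was the only 1 called, at 0.55 (adjusted p = 0.00408 by edgeR), with 10% called against 27.6% of all genes.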

How the data were processed

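Liver RNA of 4 Pcx L-/- and 4 WT mice was sequenced with 1 library per mouse. The authors deposited raw read counts for 35275 Ensembl genes and FPKM values, and 100% of 142384 FPKM values above 0 followed from the counts, the library totals and a fixed length for each gene (relative tolerance 1e-06). The submitters' processing notes name STAR 2.5, HTSeq 0.6.1, DESeq2 and the build mm10. The sources used here give neither the annotation release nor the use of strand. GENCODE M21 gave symbols to 97.8% of identifiers.

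Counts were tested with edgeR 4.0.16 in R 4.3.3 (TMM, quasi-likelihood, genotype only), on 13168 genes that passed filterByExpr (count of 10, total of 15). The scripts were tested on simulated data. FPKM served for levels and ratios, which were compared with exact two-sided permutation tests. The 19 alternatives took another scaling or filter, DESeq2 1.42.0, limma 3.58.1 on log2(FPKM + 1) and log2(FPKM + 0.1), the replicate number as a block, mouse numbers in the 500s or 800s as a covariate, the 800s alone, and each library left out. Length trends used the 9149 genes with a mean normalized count of 100 or more, a check added after the data were seen. The 10 genes, the role groups and the markers were chosen with earlier results of these data known. The genes named were the 10, the up to 5 per role group and direction with the largest change past the threshold, fixed partners of the 10, and the 3 genes most like Apoa4 and like Vldlr. Apoc4, Hnf4a, the chromosome 9 neighbours and the markers were named beyond that rule, after their values were seen. Depth was 12016242 to 20023108 reads on genes. Each mouse was 1 replicate. Some lipoprotein genes and 1 ratio are not reported here, and the counts per role group leave those genes out. Promoter sequences came from RefSeq (GRCm38.p6) for 9 of the 10 genes. Replicate numbers were read from the titles, and same-numbered libraries did not deviate together (correlations of -0.13 to 0.10).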

Additional observations from a re-analysis of the deposited data

Results flagged for a closer look

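Among 102 groups of 4 libraries examined, 11 held a library far from the other 3 by Dixon's test. Pcx L-/- replicate 1 was that library in 7 of them and WT replicate 4 in 4. Chance gives about 5% of independent groups. The groups here share the same libraries and are not independent, so the count of 11 cannot be judged by that share.

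Pcx L-/- replicate 1 stood toward or inside the WT range for Apoa5, with 36921 normalized counts against 20036 to 22019 in the other Pcx L-/- libraries. It was likewise the highest of its genotype for Abcg5 (1736 against 487 to 679.7), Apom (2421 against 1230 to 1291), Ces1d (6130 against 2109 to 2675), Clu (17088 against 12263 to 12902) and Tm6sf2 (625.6 against 298.6 to 339.7). Its log2 ratio of Apoa4 to Apoc3 in FPKM was -0.55, against 0.17 to 0.22 in the other 3. Its Pcx count of 757.7 lay with the other Pcx L-/- libraries.

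WT replicate 4 was the highest WT library for Apob, with 251112 normalized counts against 101247 to 124402, for Ppara (3858 against 3238 to 3301) and for Gm6614 (18.67 against 4.334 to 6.449). It was the lowest for Apoc3, with 18081 against 25465 to 26744.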

How the results depend on the processing

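Over 19 alternatives Apoa1, Apoa4 and Vldlr kept their direction and their call, and 2 of the 10 genes were higher in every alternative. The number that were lower, 4 in the analysis reported, was 2 with library size only and 1 with limma on log2(FPKM + 1) or log2(FPKM + 0.1), and 1 to 7 with each library left out. For the 73 pathway genes these 3 settings gave 13, 12 and 12 higher in place of 2, and 12 lower each in place of 19, and leaving out a library gave 9 to 30 lower. These 3 settings carry no correction for composition, and they moved the median of all genes to 0.28, 0.18 and 0.27. Without Pcx L-/- replicate 2, 3 or 4 or WT replicate 3 the lower calls among the 10 fell to 1 (Apoa1), as all calls fell to between 2109 and 2624 from 3632, and without Pcx L-/- replicate 1 all calls rose to 4602. The cause was not tested.

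The 4 reported ratios past the threshold kept their direction and size but not their p when libraries were left out, since 3 against 4 cannot give less than 0.0571. For the 3 ratios with Apoa4 the separation followed from Apoa4 itself. The ranges of the log2 difference were 2.93 to 3.25 for Apoa4/Apoa1, 2.12 to 2.5 for Apoa4/Apoc3, 2.54 to 3.00 for Apoa4/Apoa5 and -0.58 to -0.37 for Apoc3/Apoc2. Among mice numbered in the 800s only they were 3.15, 2.15, 2.69 and -0.61, where the smallest adjusted exact permutation p was 0.24.

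Of genes that were not called, Apoc2 changed sign without WT replicate 4 (-0.06, in a range of -0.06 to 0.29 with each library left out), Apobec1 without WT replicate 4 (-0.04) or Pcx L-/- replicate 3 or 4 (-0.02 and -0.03, in a range of -0.04 to 0.15), and Creb3l3 with library size only or limma on FPKM (0.07 each). Since same-numbered libraries did not deviate together, the replicate block was only an alternative. It gave 2975 calls over all genes, and Apob was then at -0.79 (adjusted p = 0.0675 by edgeR), while the other 9 of the 10 genes kept their side of the threshold. Vldlr had the fewest reads of the 10, and its SE of 0.20 was within the range of the others.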
